A study of Mus musculus with 38 samples.

Results

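The autophagy and lysosome genes described here are 34 genes chosen by symbol, and all 34 were found in the deposited gene table of 29564 genes and passed the filter on low counts. They comprise 3 transcription factors of the lysosomal programme, 6 factors of autophagosome initiation and conjugation, 3 LC3 and GABARAP proteins, 2 cargo receptors, 5 mitophagy factors, 4 lysosomal membrane proteins, 9 proteins of the lysosomal lumen and 2 subunits of the vacuolar proton pump (V-ATPase). One mitophagy factor enters the counts and medians below, but its own values are not given. The rule lists the genes by symbol and uses no measured value, but the members were chosen with earlier results of these data known.

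Autophagy encloses cell contents in a double membrane, the autophagosome, which fuses with the lysosome so that lysosomal hydrolases can degrade the cargo. The transcription factor TFEB and its relatives TFE3 and MITF bind short E-box elements in promoters of lysosomal genes, while mTORC1 holds TFEB in the cytoplasm when nutrients are plentiful. In heart muscle, whose cells are long-lived and rich in mitochondria, autophagy clears damaged mitochondria (mitophagy) and protein aggregates, and inherited loss of lysosomal proteins such as LAMP2 or acid alpha-glucosidase causes cardiomyopathy.

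Poly(A) RNA from the left ventricle of 38 C57BL6 wild-type mice was sequenced, 1 library per mouse. The non_failing group held 8 mice given vehicle. The other 3 groups were fed a high-fat diet and given L-NAME, which blocks nitric oxide synthesis, to produce a model of heart failure with preserved ejection fraction (HFpEF), and then received vehicle (HFpEF+Veh, 8 mice), TYA-018, an inhibitor of the deacetylase HDAC6 (HFpEF+TYA-018, 11 mice), or empagliflozin, an inhibitor of the renal glucose transporter SGLT2 (HFpEF+SGLT2i, 11 mice). The comparisons ask how these genes differ between HFpEF and non-failing hearts, and between each drug and vehicle in HFpEF. The labels give the sex as female, whereas counts for Uty, Ddx3y, Eif2s3y and Kdm5d, which lie on the Y chromosome, were present in 38 of 38 libraries. Animals were labelled individually, so p-values measure the spread between mice.

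The libraries held 33.0 ± 9.19 estimated counts, in units of 1000000 (SD, n = 38; range 21.5 to 59.3), with group means of 32.4 ± 6.78 in non_failing, 32.6 ± 10.5 in HFpEF+Veh, 31.7 ± 5.93 in HFpEF+TYA-018 and 35.0 ± 12.7 in HFpEF+SGLT2i. The labels name no batch. One HFpEF+Veh library, V2523, stood apart through RNA of hepatocyte type: the summed level of 9 hepatocyte markers was 1065 TPM (transcripts per 1000000, a level scaled for transcript length) in V2523 against a group median of 4.99 TPM. In the non_failing libraries this sum ran from 20.7 to 292 TPM, and in the drug-treated groups from 1.66 to 8.46 TPM. The counts of members called, the medians over all members and several single values that use HFpEF+Veh are therefore also given without V2523. The heart muscle origin was clear from 8 cardiomyocyte markers, whose summed levels had group medians between 22377 and 26583 TPM, while 4 atrial markers summed to 19.0 to 306 TPM over the libraries. Libraries V2571 of HFpEF+SGLT2i, V2555 of HFpEF+TYA-018, and V2526 and V2529 of HFpEF+Veh stood apart in other marker sums given below.

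The promoter sequences that TFEB and its relatives can bind are shown first, because the lysosomal members are the genes in which such elements are best known. RefSeq promoter windows (GRCm38.p6, each 300 bases long and placed around the gene start) were matched for 26 of the 34 members. The letters TCACGTG, the core of the lysosomal element, occurred on at least one strand in 8 of these 26 windows (30.8%), in 21 of 125 windows of other autophagy and lysosome genes (16.8%) and in 4.29% of all 27025 genes with a window. The shorter E-box CACGTG, which TCACGTG contains, occurred in 11 of the 26 member windows (42.3%), in 17.6% of the other pathway windows and in 8.09% of all genes. Stretches around the site nearest the RefSeq start are given 5′ to 3′ on the gene's strand, with the matched letters in capitals. The match is a description of letters and not of binding. Lamp1 is shown at greater length because its 4 sites lie close together. The stretches of Ctsd, Mcoln1, Atg7 and Atp6v1a lie inside the longer gene spans of the GENCODE annotation.
Ctsd, chr7:142387908-142387937, minus strand: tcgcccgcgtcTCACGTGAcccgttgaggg
Lamp1, chr8:13159081-13159160, plus strand: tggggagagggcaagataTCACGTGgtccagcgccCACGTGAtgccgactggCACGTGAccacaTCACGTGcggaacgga
Mcoln1, chr8:3500462-3500491, plus strand: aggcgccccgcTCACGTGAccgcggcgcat
Gaa, chr11:119267810-119267839, plus strand: ttttctgtgcgaTCACGTGtttgactctga
Gla, chrX:134601182-134601211, minus strand: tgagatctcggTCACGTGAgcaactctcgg
Atp6v0d1, chr8:105566050-105566079, minus strand: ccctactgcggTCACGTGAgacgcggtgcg
Atp6v1a, chr16:44139373-44139402, minus strand: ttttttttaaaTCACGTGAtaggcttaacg
Atg7, chr6:114670951-114670980, plus strand: ccatattggtggTCACGTGtgcagtaagtg

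The 34 genes differed widely in level. Map1lc3a, which encodes LC3A, had the highest mean, 431 TPM over the 38 libraries, followed by Ctsd (cathepsin D, 291 TPM), Sqstm1 (the cargo receptor p62, 242 TPM), Pink1 (the kinase that marks damaged mitochondria, 226 TPM) and Lamp1 (a lysosomal membrane glycoprotein, 104 TPM). At the low end lay Npc1 (a lysosomal cholesterol exporter, 1.56 TPM) and Gla (alpha-galactosidase A, 0.571 TPM, 31 to 99 counts per library). The spread over all libraries was narrowest for Atg16l1, with a coefficient of variation of 8.46%, and widest for Npc1, with 30.3%.

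**Figure D1:**
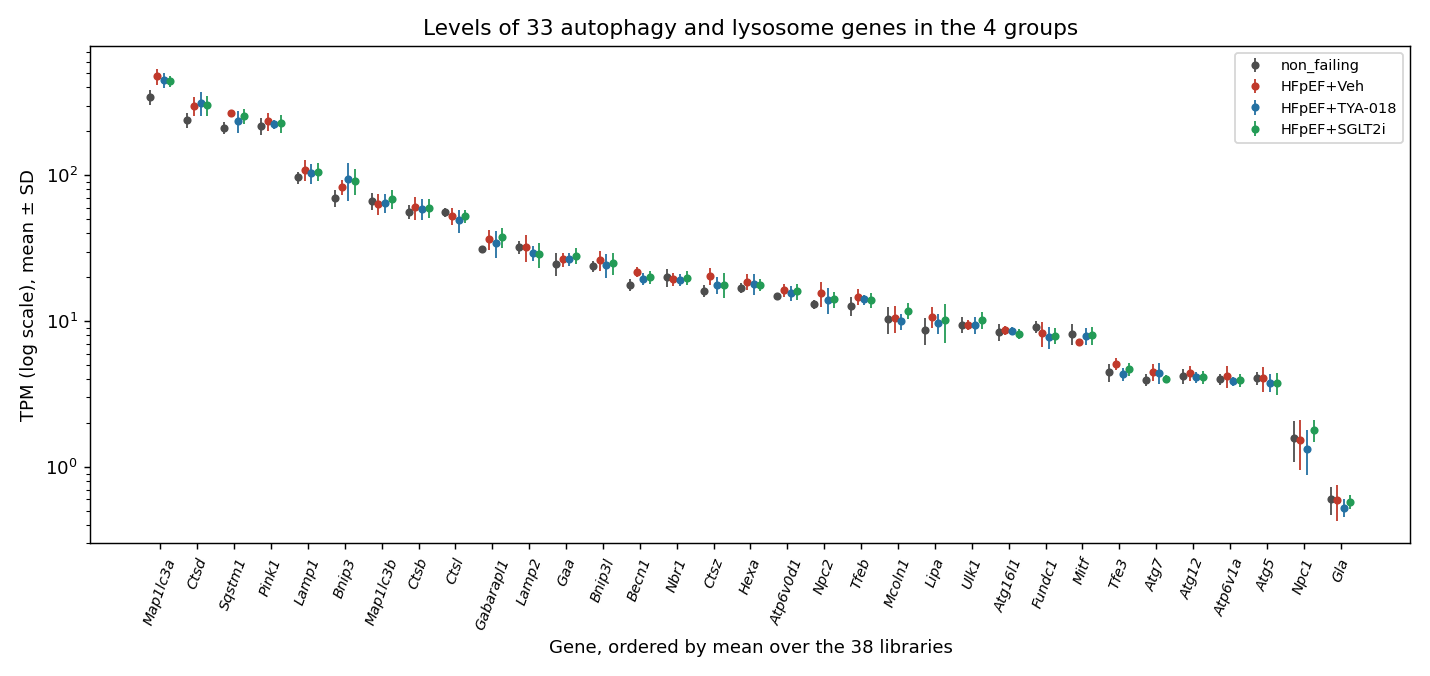
Mean ± SD in TPM on a logarithmic axis of 33 autophagy and lysosome genes in the 4 groups, with genes ordered by their mean over the 38 libraries and 1 point per group. Levels run from Gla, with a mean of 0.571 TPM, to Map1lc3a, with a mean of 431 TPM.

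All adjusted p-values given here come from edgeR's quasi-likelihood test with Benjamini-Hochberg adjustment over 13765 genes unless another tool is named, with calls made under 0.05. Fold changes are log2 differences after TMM scaling, each with its standard error (SE), while TPM levels carry no such scaling, so the 2 scales can order groups differently. The count of libraries beside a fold change says how many of the first group lay on that side of the second group's mean. In HFpEF+Veh against non_failing, 1 of the 34 genes was called (2.94%), and it was higher, against a background of 3.15% of all genes tested (1.77% higher). Neither drug gave a call against HFpEF+Veh: 0 of 34 for TYA-018, where 1.93% of all genes were called (0.835% higher), and 0 of 34 for SGLT2i, where 0.850% were called (0.131% higher). The 2 drugs were not separated either, with 0 of 34 called where the background was also 0. Against non_failing, 5 of 34 were called higher in HFpEF+TYA-018 (14.7%, background 7.39%, of which 4.00% higher) and 2 of 34 higher in HFpEF+SGLT2i (5.88%, background 6.45%, of which 3.46% higher). The counts against non_failing moved with the processing. For HFpEF+Veh the count was 2 with library size alone (background 3.47%) and 3 with limma on log2(TPM + 1) (background 3.16%). For TYA-018 it was 2 with library size alone (background 6.57%) or with either limma fit (4.4% and 4.48%), and over the fits that left out 1 library it ranged from 3 without V2503 or V2559 to 6 without V2543 or V2547. For SGLT2i it was 1 with library size alone (background 4.77%) or no filter (4.15%) and 5 with DESeq2 (14.7%, where DESeq2 called 8.2% of all genes), and it ranged from 1 to 4 over the fits that left out 1 library, with 4 without V2571 or V2572. In these edgeR fits with TMM scaling no member was called lower in any of the 6 comparisons, whereas library size alone called 1 lower, Tfe3 in TYA-018 against vehicle (2.94%, where that fit called 7.96% of all genes). These comparisons share control mice, so they are given side by side and not as independent support for each other. For fits that left out 1 library other than V2523, the share of all genes called is not given, so those counts have no background.

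Read at an unadjusted p under 0.05, the member counts were close to the background for the disease model and for both drugs against vehicle. The counts were 6 of 34 in HFpEF+Veh against non_failing (17.6%, background 15.9%), 4 in TYA-018 against vehicle (11.8%, background 17.5%), 4 in SGLT2i against vehicle (11.8%, background 10%) and 3 between the drugs (8.82%, background 13.2%). DESeq2 also called 0 members in each of the 3 comparisons in which edgeR called none. Of all genes it called 2.92% for TYA-018 against vehicle, 0.85% for SGLT2i against vehicle and 1.36% between the drugs. Against non_failing, 9 members passed the unadjusted threshold for either drug (26.5%), against backgrounds of 22% for TYA-018 and 19.6% for SGLT2i. The intervals leave room for moderate effects: over the genes described the 95% confidence intervals of TYA-018 against vehicle ran from -0.47 for Npc1 to 0.56 for Bnip3, and those of SGLT2i against vehicle from -0.31 for Lamp2 to 0.65 for Npc1, with a median SE of 0.09 in both.

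As a group, the genes had medians slightly above that of all genes against non_failing, which for HFpEF+Veh did not hold without V2523 (members 0.0015, all genes 0.0044). The median log2 fold change was 0.03 in HFpEF+Veh (all genes 0.01), with 20 of 34 positive, 0.11 in HFpEF+TYA-018 (all genes 0.01), with 24 positive, and 0.08 in HFpEF+SGLT2i (all genes 0.01), also with 24 positive. Against HFpEF+Veh the medians were 0.06 for TYA-018 (all genes -0.01), with 24 of 34 positive, and 0.05 for SGLT2i (all genes 0.01), with 21 positive. Of all genes, 52.3% were positive in HFpEF+Veh, 51% in HFpEF+TYA-018 and 51.3% in HFpEF+SGLT2i against non_failing. Against vehicle the shares of all genes were 48.2% for TYA-018 and 51.6% for SGLT2i. Other scalings moved all genes and the members together. For TYA-018 against vehicle the medians were -0.07 in the members (4 of 34 positive) and -0.14 in all genes with library size alone, and -0.06 (7 positive) and -0.08 with limma on log2(TPM + 1). For SGLT2i against vehicle they were -0.03 (12 positive) and -0.07 with library size alone, and -0.04 (13 positive) and -0.04 with limma.

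**Figure D2:**
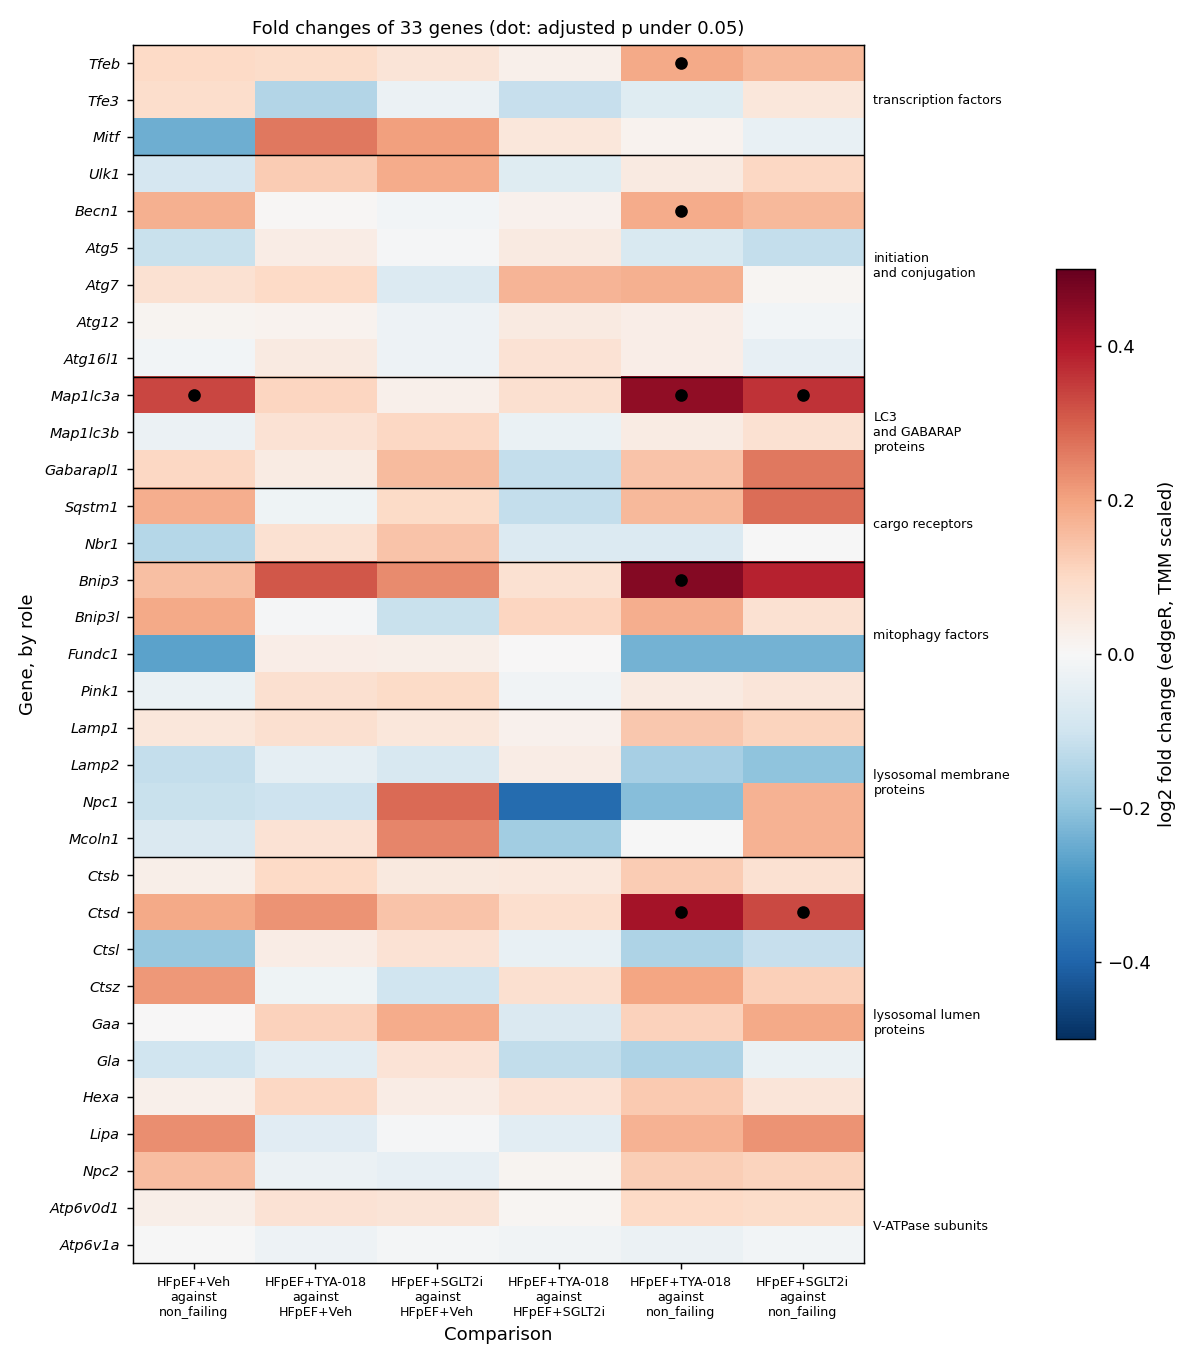
Log2 fold changes (TMM scaling) of 33 of the genes, grouped by role in rows, in the 6 comparisons in columns; genes called at an adjusted p under 0.05 are marked. The marks stand for Map1lc3a in the 3 HFpEF groups against non_failing, for Ctsd in both drug groups against non_failing, and for Bnip3, Tfeb and Becn1 in HFpEF+TYA-018 against non_failing.

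The LC3 and GABARAP proteins are ubiquitin-like proteins that are attached to lipid in the growing autophagosome membrane. They held the one member called higher than in non_failing in all 3 HFpEF groups. Map1lc3a (ENSMUSG00000027602.9, chr2:155276297-155278073, plus strand, GRCm38, protein coding) lay between 268 and 406 TPM in non_failing mice, with a median of 354 TPM. Its median was 476 TPM in HFpEF+Veh (385 to 585 TPM), 449 TPM in HFpEF+TYA-018 (376 to 576 TPM) and 446 TPM in HFpEF+SGLT2i (369 to 492 TPM). The groups overlapped at their edges only, since each HFpEF group's lowest value lay above the non_failing median. The mean rose from 343 ± 42.1 TPM (SD, n = 8) in non_failing to 478 ± 61.5 TPM (SD, n = 8) in HFpEF+Veh. On the log2 scale the difference was 0.34 (SE 0.08, adjusted p = 0.0106), with 8 of 8 mice higher. Without V2523 the value was 0.33 (adjusted p = 0.0146). Against non_failing it was higher by 0.44 in HFpEF+TYA-018 (SE 0.07, adjusted p = 0.00012, 11 of 11 mice) and by 0.36 in HFpEF+SGLT2i (SE 0.07, adjusted p = 0.00135, 11 of 11 mice). All 3 calls held in each of the 38 fits that left out 1 library.

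Neither drug moved Map1lc3a away from vehicle beyond the error. The log2 fold change was 0.11 for TYA-018 (95% confidence interval -0.04 to 0.26, adjusted p = 0.459) and 0.03 for SGLT2i (-0.12 to 0.17, adjusted p = 0.932). With library size alone the values were -0.02 and -0.06, where the medians of all genes were -0.14 and -0.07. The other members of the family were not called. Map1lc3b, the most studied LC3 gene, had means of 66.8 ± 8.59 TPM in non_failing, 63.7 ± 10.3 TPM in HFpEF+Veh, 64.7 ± 9.72 TPM in HFpEF+TYA-018 and 69.2 ± 10.2 TPM in HFpEF+SGLT2i. Gabarapl1 had 31.2 ± 1.66 TPM in non_failing and 37.5 ± 5.91 TPM in HFpEF+SGLT2i, a log2 fold change of 0.26 that did not pass (adjusted p = 0.154).

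Markers of other cell types moved between these groups too. In bulk tissue fewer cells of a type and less RNA per cell cannot be told apart. The summed level of 8 cardiomyocyte markers had a median of 26583 TPM in non_failing (20110 to 29356 TPM), 22377 TPM in HFpEF+Veh (19917 to 23637 TPM), 24032 TPM in HFpEF+TYA-018 (19919 to 25131 TPM) and 22382 TPM in HFpEF+SGLT2i (15339 to 23411 TPM). The sum of 3 erythrocyte markers had medians of 3108 TPM (1983 to 4448 TPM), 5163 TPM (3162 to 23328 TPM), 6868 TPM (2493 to 12629 TPM) and 3715 TPM (2579 to 8603 TPM) in the same order, with 23328 TPM in V2529 and 14571 TPM in V2526. V2571 had the lowest cardiomyocyte sum of the 38 libraries, 15339 TPM, and the highest sum of 5 endothelial markers, 596 TPM, where group medians lay between 340.1 and 420 TPM. V2555 had the highest macrophage sum of the 38 libraries, 330.0 TPM, and the lowest cardiomyocyte sum of its group, 19919 TPM. It also had the highest TPM of its group for 9 of 34 members, with no such share over all genes given. The sum of 12 macrophage markers, a cell type rich in lysosomes, had medians of 196 TPM in non_failing (117 to 235 TPM), 218 TPM in HFpEF+Veh (183 to 316 TPM), 199 TPM in HFpEF+TYA-018 (129 to 330 TPM) and 200 TPM in HFpEF+SGLT2i (166 to 299 TPM), and 0 of the 12 were called in any comparison. On the log2 scale after TMM, 12 of the 12 macrophage markers were positive against non_failing in HFpEF+Veh (median 0.25), 11 in HFpEF+TYA-018 (0.14) and 12 in HFpEF+SGLT2i (0.23), where 52.3%, 51% and 51.3% of all genes were positive. Of the 8 cardiomyocyte markers 3 were called lower in HFpEF+Veh and 3 in HFpEF+SGLT2i against non_failing, and 1 erythrocyte marker was called higher in HFpEF+TYA-018 against non_failing. The sum of 7 fibroblast markers had medians of 506 TPM in non_failing (357 to 581 TPM), 682 TPM in HFpEF+Veh (407 to 948 TPM), 510 TPM in HFpEF+TYA-018 (363 to 693 TPM) and 580 TPM in HFpEF+SGLT2i (413 to 693 TPM). Of these 7, 2 were called higher in HFpEF+Veh against non_failing, 1 higher in HFpEF+TYA-018, and 1 higher and 1 lower in HFpEF+SGLT2i. Of the 9 hepatocyte markers 0 were called in HFpEF+Veh against non_failing, 9 were called lower in HFpEF+TYA-018 and 8 lower in HFpEF+SGLT2i against non_failing, and 9 lower in each drug group against vehicle. The hepatocyte counts that use HFpEF+Veh changed when V2523 was left out. Without it 8 were called lower in HFpEF+Veh against non_failing, 2 lower in TYA-018 against vehicle and 0 in SGLT2i against vehicle. Without V2523, 3 of 3 erythrocyte markers were called higher in HFpEF+Veh and 2 of 3 in HFpEF+TYA-018 against non_failing. None of the 8 cardiomyocyte, 3 erythrocyte, 12 macrophage or 7 fibroblast markers was at 0 throughout a group. The part of these differences in cell makeup in the results on autophagy genes was not tested.

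**Figure D3:**
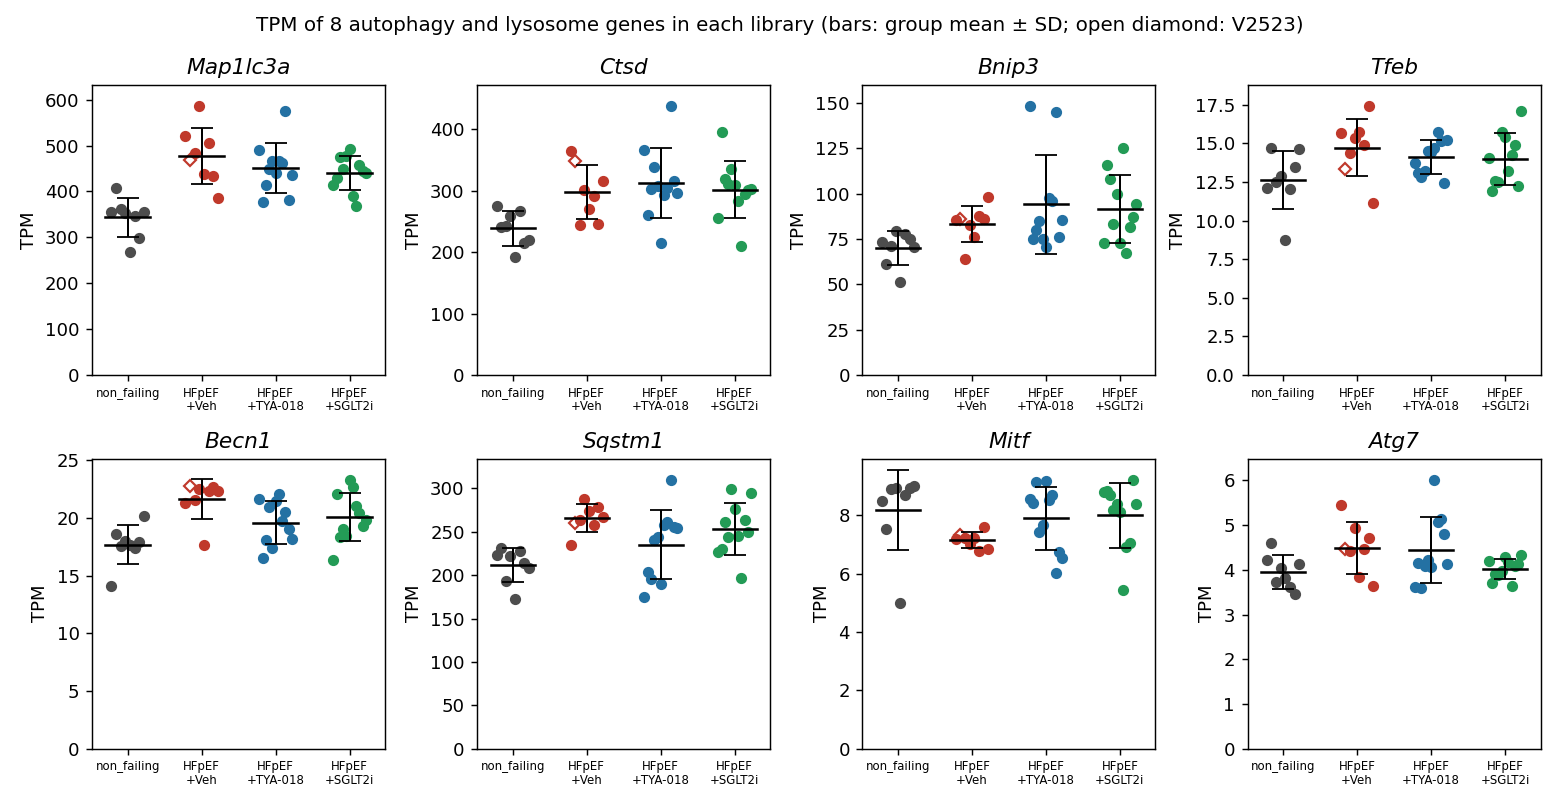
Levels in TPM of the 8 autophagy and lysosome genes described in full, 1 point per library in the 4 groups (open diamond for V2523), with the mean and SD. The HFpEF groups sit higher for Map1lc3a, whose means are 343 TPM in non_failing and 478 TPM in HFpEF+Veh, and in Bnip3 HFpEF+TYA-018 libraries reach 148 TPM.

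Among the lumen proteins of the lysosome, Ctsd was called in both drug-treated groups against non_failing and not in the vehicle group. Ctsd (ENSMUSG00000007891.16, chr7:142375911-142388038, minus strand, protein coding) encodes cathepsin D, an aspartic protease. It ranged from 192 to 276 TPM in non_failing, with a median of 242 TPM, and from 245 to 365 TPM in HFpEF+Veh, with a median of 297 TPM. It ranged from 215 to 438 TPM in HFpEF+TYA-018, the highest in V2555, with a median of 305 TPM, and from 211 to 395 TPM in HFpEF+SGLT2i, with a median of 303 TPM. All groups overlapped, and both drug groups reached above the highest vehicle value. Ctsd was higher than in non_failing by 0.42 in HFpEF+TYA-018 (SE 0.10, adjusted p = 0.00957, 10 of 11 mice) and by 0.33 in HFpEF+SGLT2i (SE 0.10, adjusted p = 0.0457, 10 of 11 mice). The value in HFpEF+Veh was 0.19 (SE 0.11, adjusted p = 0.413), and 0.16 without V2523. A call against non_failing in one HFpEF group and not in another does not show that they differ: TYA-018 against vehicle gave 0.22 (adjusted p = 0.247) and SGLT2i against vehicle 0.14 (adjusted p = 0.688). Without V2523 these were 0.26 (adjusted p = 0.171) and 0.17 (adjusted p = 0.568).

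The TYA-018 call of Ctsd held in all 38 fits without 1 library. The SGLT2i call held in 15 of 38, with a largest adjusted p of 0.0995 without V2507. It was lost without V2502, V2503, V2504, V2507, V2509 or V2510 of non_failing, without V2528 of HFpEF+Veh, without V2546, V2547, V2548, V2549, V2551, V2552, V2559 or V2570 of HFpEF+TYA-018, and without V2561, V2562, V2563, V2564, V2565, V2566, V2573 or V2574 of HFpEF+SGLT2i. In the annotation Ctsd overlaps the readthrough gene Gm49369 on the same strand, which had no entry of its own in the count table.

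The other 8 lumen proteins gave no call. They were the cathepsins Ctsb, Ctsl and Ctsz, the glycosidases Gaa, Gla and Hexa, the acid lipase Lipa, and the cholesterol carrier Npc2. Ctsz had 16.2 ± 1.5 TPM in non_failing and 20.3 ± 2.71 TPM in HFpEF+Veh, and differed by 0.22 on the log2 scale (adjusted p = 0.291, 7 of 8 mice higher). Ctsl had 55.7 ± 3.75 TPM and 52.7 ± 7.26 TPM, with -0.19 (adjusted p = 0.269; -0.23 and 0.130 without V2523). Gaa, the glycogen-degrading glucosidase deficient in Pompe disease, had 26.6 ± 2.96 TPM in HFpEF+Veh and 28.2 ± 3.5 TPM in HFpEF+SGLT2i, a log2 fold change of 0.19 (adjusted p = 0.434). Lipa had its widest range in HFpEF+SGLT2i, from 7.51 to 18.9 TPM, the highest in V2571, and 10.7 ± 1.76 TPM in HFpEF+Veh against 8.65 ± 1.84 TPM in non_failing. Over the 9 lumen proteins the median log2 fold change was 0.03 in HFpEF+Veh, 0.13 in HFpEF+TYA-018 and 0.11 in HFpEF+SGLT2i against non_failing, with 7 of 9 positive in each.

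Among the mitophagy factors, Bnip3, which encodes a receptor in the outer mitochondrial membrane that binds LC3, was called in HFpEF+TYA-018 against non_failing. Bnip3 (ENSMUSG00000078566.8, chr7:138890836-138909519, minus strand) ranged from 51.3 to 79.5 TPM in non_failing, with a median of 72.2 TPM, and from 63.9 to 98.3 TPM in HFpEF+Veh, with a median of 85.6 TPM. In HFpEF+TYA-018 it ranged from 70.6 to 148 TPM, with a median of 85.0 TPM, and in HFpEF+SGLT2i from 67.1 to 125 TPM, with a median of 87.2 TPM. The medians of the 3 HFpEF groups lay close together, while the drug groups had longer upper tails, led by V2543 with 148 TPM and V2555 with 145 TPM in HFpEF+TYA-018. The log2 fold change against non_failing was 0.46 in HFpEF+TYA-018 (SE 0.13, adjusted p = 0.0176, 11 of 11 mice), 0.39 in HFpEF+SGLT2i (adjusted p = 0.0555; 0.34 and 0.106 without V2571, which gave the 125 TPM) and 0.15 in HFpEF+Veh (adjusted p = 0.622). The SGLT2i value passed without V2543, V2555, V2566 or V2572, with a smallest adjusted p of 0.0331 without V2555. The TYA-018 call held in all 38 fits without 1 library, at most at an adjusted p of 0.0494 without V2555, and was lost with library size alone (0.41, adjusted p = 0.0579) and with limma on log2(TPM + 1) (0.39, adjusted p = 0.0574). Against vehicle, Bnip3 differed by 0.31 in HFpEF+TYA-018 (95% confidence interval 0.06 to 0.56, adjusted p = 0.177, 8 of 11 mice).

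The other mitophagy factors described gave no call in any comparison. Fundc1, an outer-membrane receptor of mitochondria, had 9.15 ± 0.920 TPM in non_failing, 8.23 ± 1.58 TPM in HFpEF+Veh, 7.76 ± 1.3 TPM in HFpEF+TYA-018 and 7.96 ± 1.03 TPM in HFpEF+SGLT2i. Its log2 fold changes against non_failing were -0.27, -0.23 and -0.24 in that order, with adjusted p-values of 0.237, 0.185 and 0.205, and without V2523 the first was -0.31 (adjusted p = 0.129). Fundc1 had the lowest log2 fold change of the members in HFpEF+Veh against non_failing. Pink1 had group means from 219 ± 28.4 to 234 ± 31.6 TPM. Bnip3l, also called NIX, had group means between 23.8 ± 2.00 TPM in non_failing and 26.3 ± 4.18 TPM in HFpEF+Veh.

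The transcription factors showed a call for Tfeb, and Mitf gave the smallest adjusted p of all members for TYA-018 against vehicle. Tfeb (ENSMUSG00000023990.18, chr17:47737030-47792419, plus strand) ranged from 8.74 to 14.7 TPM in non_failing (median 12.7 TPM), from 11.1 to 17.4 TPM in HFpEF+Veh (15.1 TPM), from 12.5 to 15.8 TPM in HFpEF+TYA-018 (14.4 TPM) and from 11.9 to 17.1 TPM in HFpEF+SGLT2i (14.0 TPM). The ranges overlapped broadly, and V2507 gave the lowest non_failing value. Tfeb was higher by 0.19 in HFpEF+TYA-018 than in non_failing (SE 0.05, adjusted p = 0.0227, 11 of 11 mice), with 0.16 in HFpEF+SGLT2i (adjusted p = 0.0603) and 0.10 in HFpEF+Veh (adjusted p = 0.409). The SGLT2i value passed without V2530, V2571 or V2574, with a smallest adjusted p of 0.0352 without V2574. The TYA-018 call was lost without V2503, V2507 or V2559, with a largest adjusted p of 0.0891 without V2507. It was also lost with library size alone (0.13, adjusted p = 0.256), with limma on log2(TPM + 1) (0.17, adjusted p = 0.315) and with a length offset (0.20, adjusted p = 0.0934).

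Mitf (ENSMUSG00000035158.15, chr6:97807052-98021349, plus strand) was lowest in HFpEF+Veh, where its 8 values lay between 6.79 and 7.61 TPM (median 7.21 TPM). It lay between 4.99 and 9 TPM in non_failing (median 8.80 TPM), between 6.04 and 9.17 TPM in HFpEF+TYA-018 (8.42 TPM) and between 5.43 and 9.21 TPM in HFpEF+SGLT2i (8.39 TPM). The vehicle values thus fell inside the range of every other group, although below the median of each. For non_failing the low end of the range was V2507 alone (4.99 TPM, next 7.55 TPM). None of the differences passed: -0.24 in HFpEF+Veh against non_failing (adjusted p = 0.197), 0.26 for TYA-018 against vehicle (95% confidence interval 0.08 to 0.45, adjusted p = 0.118, 9 of 11 mice) and 0.21 for SGLT2i against vehicle (adjusted p = 0.429, 10 of 11 mice). Without V2523 the first 2 were -0.23 and 0.25. Without V2507 the first had an adjusted p of 0.0819. Tfe3 had 5.11 ± 0.511 TPM in HFpEF+Veh and 4.33 ± 0.435 TPM in HFpEF+TYA-018, a log2 fold change of -0.15 (adjusted p = 0.23, 10 of 11 mice).

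In the initiation and conjugation group, Becn1, which encodes the beclin 1 subunit of the lipid kinase that starts the autophagosome membrane, was called in HFpEF+TYA-018 against non_failing. Becn1 (ENSMUSG00000035086.13, chr11:101285952-101302286, minus strand) ranged from 14.1 to 20.2 TPM in non_failing (median 17.8 TPM), from 17.6 to 22.8 TPM in HFpEF+Veh (22.4 TPM), from 16.5 to 22.1 TPM in HFpEF+TYA-018 (19.7 TPM) and from 16.4 to 23.3 TPM in HFpEF+SGLT2i (19.8 TPM). In TPM the vehicle group was highest, and 7 of its 8 mice lay above every non_failing mouse. The log2 fold changes against non_failing were alike in size: 0.19 in HFpEF+TYA-018 (SE 0.06, adjusted p = 0.0397, 11 of 11 mice), 0.18 in HFpEF+Veh (SE 0.06, adjusted p = 0.110, 8 of 8 mice) and 0.16 in HFpEF+SGLT2i (adjusted p = 0.0820). Without V2523 the HFpEF+Veh value was 0.19 (adjusted p = 0.0838). The SGLT2i value passed without V2507 (adjusted p = 0.0447). The TYA-018 call was lost without V2501, V2503, V2504, V2508 or V2509 of non_failing, V2548, V2550, V2551, V2552, V2555 or V2559 of HFpEF+TYA-018, or V2561 of HFpEF+SGLT2i, with a largest adjusted p of 0.0970 without V2501. It was also lost under 6 of the alternatives given in the closing section. With library size alone the called comparison was instead HFpEF+Veh against non_failing (0.25, adjusted p = 0.0323). On the other strand Becn1 overlaps Cntd1.

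Atg7, the activating enzyme of both conjugation systems, gave the smallest adjusted p between the drugs, without a call. Atg7 (ENSMUSG00000030314.16, chr6:114643097-114860614, plus strand) ranged from 3.47 to 4.61 TPM in non_failing (median 3.93 TPM), from 3.64 to 5.44 TPM in HFpEF+Veh (4.48 TPM), from 3.60 to 6.01 TPM in HFpEF+TYA-018 (4.16 TPM) and from 3.64 to 4.33 TPM in HFpEF+SGLT2i (4.08 TPM). The SGLT2i values formed the narrowest range and lay inside those of the other 3 groups. HFpEF+TYA-018 against HFpEF+SGLT2i gave 0.17 (95% confidence interval 0.06 to 0.28, adjusted p = 0.169, 9 of 11 mice), and HFpEF+TYA-018 against non_failing gave 0.18 (adjusted p = 0.0713), which passed without V2543 or V2547. Ulk1, the kinase that receives the signal of mTORC1, had 9.44 ± 0.743 TPM in HFpEF+Veh and 10.2 ± 1.35 TPM in HFpEF+SGLT2i, with 0.19 (adjusted p = 0.300). Atg5, Atg12 and Atg16l1, which form one conjugation complex, had group means between 3.76 ± 0.627 and 4.08 ± 0.411 TPM, between 4.11 ± 0.339 and 4.4 ± 0.494 TPM, and between 8.17 ± 0.597 and 8.69 ± 0.636 TPM.

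Of the cargo receptors, Sqstm1 was the one gene in which 2 groups did not overlap in TPM. Sqstm1 (p62, ENSMUSG00000015837.15, chr11:50199366-50210827, minus strand) ranged from 172 to 231 TPM in non_failing (median 218 TPM) and from 235 to 288 TPM in HFpEF+Veh (median 265 TPM). That is 1 of 34 members in this comparison, where 0.581% of all genes tested had ranges that did not overlap, and 0 of 34 in the other 5: TYA-018 against vehicle (0.102% of all genes), SGLT2i against vehicle (0.0145%), between the drugs (0.00726%), TYA-018 against non_failing (0.872%) and SGLT2i against non_failing (0.719%). The drug groups spanned both, from 175 to 309 TPM in HFpEF+TYA-018 (median 244 TPM) and from 196 to 299 TPM in HFpEF+SGLT2i (median 249 TPM). After TMM scaling the vehicle difference was 0.18 (SE 0.10, 95% confidence interval -0.02 to 0.38, adjusted p = 0.362, 8 of 8 mice), so the separation in TPM was not a call, whereas limma on log2(TPM + 1) gave 0.32 (adjusted p = 0.0448). Without V2523 edgeR gave 0.17 (adjusted p = 0.385). HFpEF+SGLT2i against non_failing gave 0.28 (adjusted p = 0.0591), which passed without V2501, V2508, V2550, V2571 or V2572, and TYA-018 against vehicle gave -0.02 (adjusted p = 0.928). Nbr1, a related receptor, had group means between 19.2 ± 1.79 and 19.9 ± 2.67 TPM.

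The lysosomal membrane proteins and the V-ATPase subunits gave no call. Mcoln1, the calcium channel of the lysosome, had 10.5 ± 2.22 TPM in HFpEF+Veh, 9.97 ± 1.23 TPM in HFpEF+TYA-018 and 11.8 ± 1.48 TPM in HFpEF+SGLT2i. Its log2 fold change for SGLT2i against vehicle was 0.25 (SE 0.09, adjusted p = 0.227, 11 of 11 mice), the smallest adjusted p of the members in that comparison, and 0.24 without V2523 (adjusted p = 0.331). Npc1 had 1.79 ± 0.319 TPM in HFpEF+SGLT2i and 1.34 ± 0.448 TPM in HFpEF+TYA-018, the largest difference between the drugs among the members, -0.39 (SE 0.17, adjusted p = 0.317).

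Lamp1 and Lamp2, the main glycoproteins of the lysosomal membrane, were close between groups. Lamp1 had 96.6 ± 9.52 TPM in non_failing, 109 ± 17.7 TPM in HFpEF+Veh, 103 ± 16.0 TPM in HFpEF+TYA-018 and 106 ± 15.0 TPM in HFpEF+SGLT2i, and Lamp2 had group means from 28.8 ± 5.62 to 32.2 ± 3.41 TPM. The V-ATPase acidifies the lysosome. Its membrane subunit Atp6v0d1 had group means from 14.8 ± 0.855 to 16.4 ± 1.63 TPM, and its catalytic subunit Atp6v1a from 3.88 ± 0.258 to 4.22 ± 0.748 TPM.

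Members with the TCACGTG element shown above were set beside those without it. For TYA-018 against vehicle the median log2 fold change was 0.08 in the 8 members whose window holds the element, 0.04 in the 18 whose window does not, and 0.03 in the 8 with no window. For SGLT2i against vehicle the medians were 0.07, 0.07 and -0.02, and between the drugs -0.0033, -0.0074 and 0.06. For TYA-018 against non_failing the medians were 0.11, 0.04 and 0.16, with 1, 2 and 2 members called (7.39% of all genes called). For HFpEF+Veh against non_failing they were 0.01, -0.0012 and 0.07, with 0, 0 and 1 called (3.15% of all genes). For SGLT2i against non_failing they were 0.10, 0.07 and 0.08, with 1, 0 and 1 called (6.45% of all genes). These small values are a description with no test.

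V2523 changed none of the counts of members called at an adjusted p under 0.05. Without it, 1, 0, 0, 0, 5 and 2 members were called in HFpEF+Veh against non_failing, TYA-018 against vehicle, SGLT2i against vehicle, TYA-018 against SGLT2i, TYA-018 against non_failing and SGLT2i against non_failing, while the background became 4.49%, 1.42%, 0.0145%, 0%, 8.14% and 6.91%. At an unadjusted p under 0.05 the members numbered 6, 4, 3, 3, 9 and 9 without it, in place of 6, 4, 4, 3, 9 and 9. V2523 held the highest vehicle value for 12 of 34 members and the lowest for 1. Leaving it out moved the member median from 0.03 to 0.0015 in HFpEF+Veh against non_failing (all genes 0.0044), with 17 of 34 positive in place of 20, from 0.06 to 0.08 for TYA-018 against vehicle, with 28 in place of 24, and from 0.05 to 0.08 for SGLT2i against vehicle, with 23 in place of 21. Of the 13801 genes tested without V2523, 7028, 6854 and 7095 were positive in these comparisons, in that order. In the non_failing group V2507 gave the lowest value for 21 of 34 members and the highest for 0. V2507 also had the lowest cardiomyocyte sum (20110 TPM) and the highest erythrocyte sum (4448 TPM) of its group. V2526 was lowest in HFpEF+Veh for 11 of 34 members, and V2550 was lowest in HFpEF+TYA-018 for 14. In HFpEF+SGLT2i, V2561 and V2572 were each lowest for 10, and V2562 was highest for 10. These counts of lowest and highest values use TPM, which carries no TMM scaling. The same share over all genes is not given, so they are not read as a trait of these members.

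**Figure D4:**
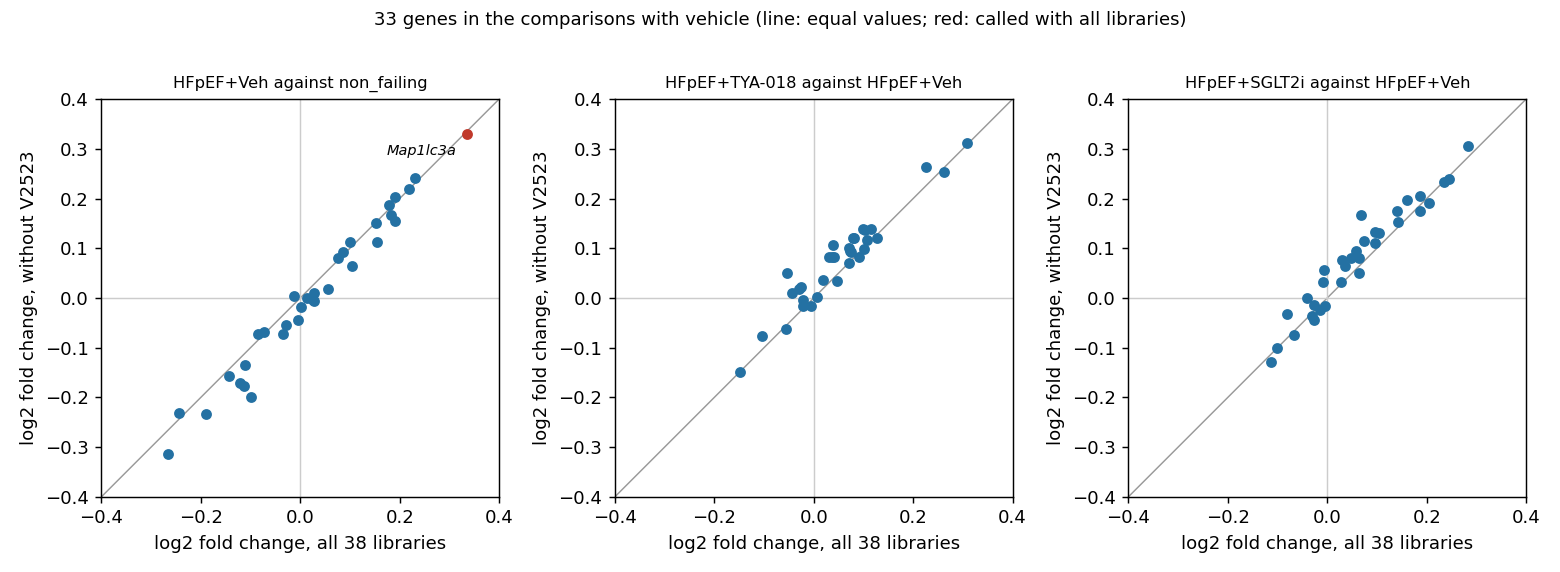
Log2 fold changes of 33 of the genes in the comparisons that use HFpEF+Veh, with all libraries on the horizontal axis and without V2523 on the vertical axis. The points lie near the diagonal, with Map1lc3a at 0.34 and 0.33 in HFpEF+Veh against non_failing.

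A wider list of 148 other autophagy and lysosome genes, of which 147 were tested, gave calls at rates near those of all genes. In HFpEF+Veh against non_failing 3 of 147 were called (2.04%, background 3.15%). Ctsa, the protective protein of the lysosomal neuraminidase complex, rose from 33.9 ± 3.76 to 44.2 ± 5.39 TPM (0.25, SE 0.06, adjusted p = 0.0224, 7 of 8 mice). Sort1, the sorting receptor sortilin, fell from 3.24 ± 0.728 to 2.53 ± 0.752 TPM (-0.43, SE 0.12, adjusted p = 0.0371), and Rragd, a Rag GTPase that recruits mTORC1 to the lysosome, fell from 11.7 ± 3.97 to 7.59 ± 2.36 TPM (-0.69, SE 0.18, adjusted p = 0.0223). The Ctsa call was lost without V2503 or V2530, the Rragd call without V2501, V2503, V2504 or V2530, and the Sort1 call without any of V2501, V2503, V2504, V2526, V2527, V2528, V2529 or V2530. Without V2523, Ctsa gave 0.27, Sort1 -0.55 and Rragd -0.74, and 5 of 147 were called (3.4%, background 4.49%), with Atg13 (0.42, adjusted p = 0.0349) and Manba (0.26, adjusted p = 0.0414) added. Without V2503, 0 were called, with no share of all genes given for that fit.

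For each drug against vehicle, and between the drugs, 0 of the 147 were called (backgrounds 1.93% for TYA-018, 0.850% for SGLT2i and 0% between the drugs). At an unadjusted p under 0.05 they numbered 18 for TYA-018 against vehicle (12.2%, background 17.5%), 8 for SGLT2i against vehicle (5.44%, background 10%) and 23 between the drugs (15.6%, background 13.2%). Without V2523, 2 of 147 passed for TYA-018 against vehicle (1.36%, background 1.42%): Vmp1, a membrane protein of autophagosome formation, at 0.33 (adjusted p = 0.0332), and Wdfy3, a scaffold for the clearance of protein aggregates, at -0.31 (adjusted p = 0.0316). Without V2521 the count was also 2 for TYA-018 against vehicle, and without V2532 it was 1 for SGLT2i against vehicle. No share of all genes is given for these fits, so these counts have no background.

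Against non_failing, 9 of 147 were called in HFpEF+TYA-018 (6.12%, background 7.39%), 6 higher and 3 lower. Among the higher genes, the highest-ranked were Ctsa (0.37, adjusted p = 8.5e-05), Phb2 and Mtor. Phb2, a mitophagy receptor of the inner mitochondrial membrane, gave 0.35 (adjusted p = 0.00181). Mtor, the kinase of mTORC1, gave 0.25 (adjusted p = 0.00597). The 3 lower were Sort1 (-0.58, adjusted p = 0.000598), Rragd (-0.55, adjusted p = 0.0326) and Wdfy3 (-0.25, adjusted p = 0.0460). All 6 of these differences had the same direction in 11 of 11 mice. The Rragd call was lost without V2501, V2503, V2504, V2550 or V2551. The Wdfy3 call held in 22 of 38 fits that left out 1 library, with a largest adjusted p of 0.148 without V2510, and was lost without V2503, V2504, V2509, V2510, V2526, V2527, V2547, V2549, V2550, V2551, V2555, V2559, V2566, V2570, V2573 or V2575. The number called ranged from 6 without V2503 to 10 without V2508, with no share of all genes given for these fits.

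In HFpEF+SGLT2i against non_failing 10 of 147 were called (6.80%, background 6.45%), 8 higher and 2 lower. They were led by Mtor (0.35, adjusted p = 0.00018, 11 of 11 mice), by Psap, the precursor of the saposins, which rose from 204 ± 22.9 to 265 ± 31.0 TPM (0.38, adjusted p = 0.0017, 10 of 11 mice), and by Atg13, a subunit of the ULK1 complex, which rose from 11.8 ± 1.72 to 16.8 ± 2.15 TPM (0.51, adjusted p = 0.00441, 11 of 11 mice). The 2 lower were Sort1 (-0.38, adjusted p = 0.0308) and the V-ATPase subunit Atp6v1g1, which fell from 94.7 ± 6.01 to 82.3 ± 5.93 TPM (-0.19, adjusted p = 0.0202, 11 of 11 mice). The Sort1 call was lost without V2501, V2503, V2504, V2566, V2572 or V2573, and the Atp6v1g1 call without V2502. The number called ranged from 7 without V2501 to 13 without V2562, with no share of all genes given for these fits.

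**Figure D5:**
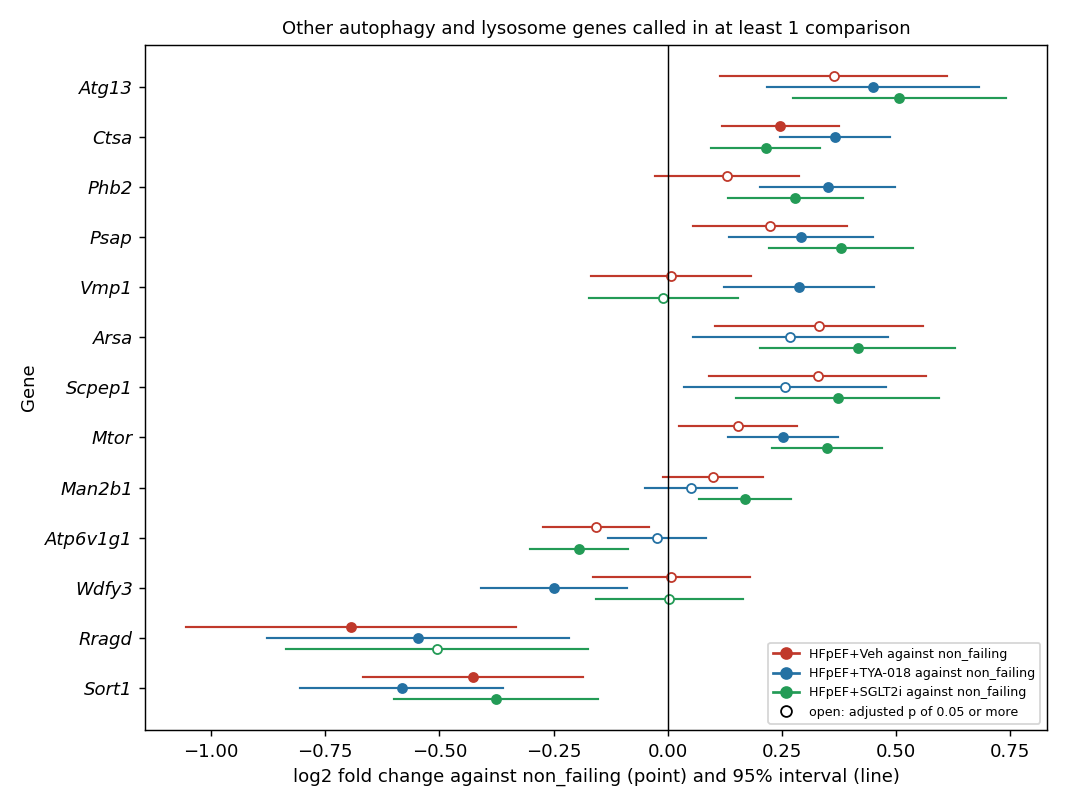
Log2 fold changes against non_failing of the 13 other autophagy and lysosome genes called in at least 1 comparison, in the 3 HFpEF groups, with 95% confidence intervals and filled symbols for called values. Ctsa lies above 0 in all 3 groups, while Sort1 and Rragd lie below 0.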

How the data were processed

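The authors made stranded poly(A) libraries, trimmed reads with fastp and, per the submitters' processing notes, quantified transcripts with Salmon 1.6.0 against GENCODE M25. The deposited estimated counts per gene are not normalized, were summarised from transcripts by the authors with tximport, and were rounded to whole numbers here. The deposited TPM values (transcripts per 1000000) were scaled by the authors for transcript length and depth. The deposited effective lengths served in the length offset. The labels name a human genome build, which the mouse gene symbols contradict.

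Counts were analysed in R 4.3.3 with edgeR 4.0.16. Genes passed filterByExpr, libraries were scaled by TMM, and one quasi-likelihood model of the 4 groups without covariates gave 6 two-sided comparisons over 13765 genes. Standard errors were derived from each fold change and its F statistic. The scripts were tested on simulated data. The members, the wider list and the markers were chosen with earlier results of these data known. Members are reported by role, except 1 whose values are not reported here. In full are given those called in any comparison, filled to 8 by the smallest unadjusted p, and of the wider list at most 3 called genes per direction and comparison. Genes named beyond these rules were chosen after their values were seen. No 2 libraries of a group were alike within counting noise (166 pairs, chi-square per degree of freedom at least 17.4). Alternatives were library size alone, DESeq2 1.42.0, no filter, limma 3.58.1 on log2(TPM + 1) and log2(TPM + 0.1) on genes detected in 90% of libraries, without mitochondrial genes, with TPM rescaled (the study's restriction to protein-coding genes was not applied), a length offset, only the 2 groups compared, and leaving out V2523. Leaving out each other library was added after seeing the data. Gene positions come from GENCODE M21 and promoters from RefSeq.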

Additional observations from a re-analysis of the deposited data

Results flagged for a closer look

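In 7 of 94 groups of 8 libraries tested, 1 library lay further from its neighbour than Dixon's critical ratio of 0.526 allows, and chance gives such a gap in about 1 of 20 groups. Groups of 11 were not tested. In non_failing mice V2507 was lowest for Tfeb (8.74 TPM, next 12.1 TPM), for Mitf (4.99 TPM, next 7.55 TPM) and for Psap (154 TPM, next 198 TPM), and V2501 was lowest for Becn1 (14.1 TPM, next 17.4 TPM). In HFpEF+Veh mice V2528 was lowest for Becn1 (17.6 TPM, next 21.3 TPM), V2532 was highest for Npc1 (2.84 TPM, next 1.83 TPM) and V2523 was highest for Sort1 (4.17 TPM, next 2.84 TPM).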

How the results depend on the processing

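Among the values recomputed for the named genes under the 8 alternatives, 463 kept their direction and their side of the threshold, 56 lost a call, 7 gained one and 34 changed sign, all of these 34 without a call. The values cover the 8 members described in full in all 6 comparisons, most of them without a call. Genes of the wider list enter only where they were called. A value without a call cannot lose one, so the 463 do not measure how stable the calls were. With 1 library left out at a time, the members called stayed at 1 for HFpEF+Veh against non_failing and at 0 for TYA-018 against vehicle, SGLT2i against vehicle and between the drugs, and ranged from 3 (without V2503 or V2559) to 6 (without V2543 or V2547) for TYA-018 against non_failing and from 1 to 4 (without V2571 or V2572) for SGLT2i against non_failing. With library size alone the counts were 2 for HFpEF+Veh against non_failing (Becn1 and Map1lc3a; 3.47% of all genes called), 1 for TYA-018 against vehicle (Tfe3, lower; 7.96%), 2 for TYA-018 and 1 for SGLT2i against non_failing. Limma on log2(TPM + 1) gave 3 for HFpEF+Veh (Becn1, Map1lc3a and Sqstm1; 3.16% of all genes) and 2 for TYA-018 against non_failing (Ctsd and Map1lc3a), and limma on log2(TPM + 0.1) gave the same 2. The length offset gave 3 for TYA-018 against non_failing (Bnip3, Ctsd and Map1lc3a; 6.18% of all genes), DESeq2 gave 5 for SGLT2i against non_failing (Bnip3, Ctsd, Map1lc3a, Sqstm1 and Tfeb), and no filter gave 1 there. The Ctsd call of SGLT2i against non_failing was lost with library size alone (adjusted p = 0.0838) and with no filter (adjusted p = 0.0713), and the Becn1 call of TYA-018 with both, both limma fits, the length offset and only the 2 groups compared (adjusted p from 0.0548 to 0.282). The cause was not tested. Library size alone, limma + 1 and limma + 0.1 moved all genes together, with medians over all genes of -0.14, -0.08 and -0.12 for TYA-018 against vehicle, -0.07, -0.04 and -0.06 for SGLT2i against vehicle, and -0.06, -0.04 and -0.05 between the drugs. Relative to 0, and not to these medians, signs turned, with library size alone, limma + 1 and limma + 0.1 in this order, for TYA-018 against vehicle in Tfeb (-0.037, -0.042, -0.043), Becn1 (-0.12, -0.13, -0.13; no filter -0.00059, length offset -0.0092), Atg7 (-0.028, -0.0068, -0.0084) and Map1lc3a (-0.024, -0.071, -0.071). They turned for SGLT2i against vehicle in Tfeb (-0.013, -0.048, -0.050), Map1lc3a (-0.055, -0.091, -0.091; length offset -0.027) and, with limma, Sqstm1 (-0.052, -0.053), and between the drugs in Becn1 (-0.029, -0.042, -0.043), Tfeb (library size alone, -0.024) and Mitf (limma, -0.024, -0.026). Against non_failing they turned for TYA-018 in Mitf (-0.049, -0.035, -0.036; length offset -0.0053) and for SGLT2i in Atg7 (library size alone, -0.00014). Over all genes the calls for TYA-018 against vehicle were 266, but 1096 with library size alone (2.28% of them higher), 618 with no filter (20.4% higher), 402 with DESeq2, 192 with the length offset, 58 with only the 2 groups compared, and 38 and 41 with limma. For SGLT2i against vehicle they were 117, but 457 with no filter, 3 with only the 2 groups compared, 2 without V2523 and 0 with limma, and between the drugs they were 0, but 187 with DESeq2 and 5 with the length offset. Limma called 612 and 623 for TYA-018 and 521 and 530 for SGLT2i against non_failing, in place of 1017 and 888. No paired analysis was possible because mouse numbers differ in every group. The median SE over the members was 0.09 for each drug against vehicle, and the smallest difference that could be detected was not tested.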
